A study of Mus musculus with 64 samples.

Results

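The genes described here move cholesterol out of cells, hydroxylate or esterify it, or control these steps as liver X receptors. The rule took every probe set annotated to 10 named genes, and 11 probe sets of 8 genes were found among the 45101 on the array, whose probe sets of 1 symbol name 18193 genes. Abca1 has 3 of them, Abcg1 has 2, and Apoe, Cyp46a1, Lcat, Lpcat3, Mylip and Nr1h3 have 1 each. The expression of Nr1h2 and Soat1, the remaining genes, was not analysed here. All 11 probe sets were bright enough to be tested in both regions. The dimmest were Abca1 1450392_at and Nr1h3, with mean log2 intensities of 6.40 and 6.48 against a filter level of 5.93.

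RNA came from mice 4 months old, bred as a first-generation cross of C57Bl/6 with SJL. They were either Tg2576 mice, which overexpress human amyloid precursor protein carrying a disease mutation under prion protein gene sequences (by textbook knowledge), or wild-type littermates without the transgene. Each mouse carried a pump under the skin that delivered either vehicle or the drug PF-04447943, which blocks the cyclic GMP phosphodiesterase PDE9A, over 28 days. Hippocampus and prefrontal cortex (called frontal cortex in the series' design) gave 8 groups of 8 arrays, 64 in all, and the labels do not say which arrays of the regions came from the same mouse. The tissue was bulk, so fewer cells of a type and less RNA per cell cannot be told apart. Levels below are log2 of the deposited intensity, given as the median with the lowest and highest of 8 arrays. A level is compared between groups for the same probe set only.

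Brain cholesterol is made locally and does not cross the blood-brain barrier. Liver X receptors are nuclear receptors that bind oxysterols, pair with retinoid X receptors, and switch on genes that export cholesterol. Nr1h3 encodes the alpha form. Among its known targets, Abca1 and Abcg1 are transporters that load cholesterol onto lipoproteins, Apoe is the main lipoprotein of the brain and is made chiefly by astrocytes, Mylip is a ligase that marks lipoprotein receptors for degradation, and Lpcat3 remodels membrane phospholipids. Lcat esterifies cholesterol on lipoproteins. Cyp46a1 is a neuronal hydroxylase whose product can leave the brain and is also a ligand of these receptors.

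The classical binding site of these receptors is a direct repeat of AGGTCA with a spacer of 4 bases, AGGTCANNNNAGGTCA. The 250 bases before annotated starts, which can lie inside a gene, were searched on both strands in RefSeq's GRCm38.p6 promoters. There, 9 of the 10 genes, Nr1h2 and Soat1 among them and Abcg1 not, had a window. The sequences shown are those of the alpha receptor itself, of Abca1 as the textbook target, and of the members with a window that differed most between regions in each direction, Lcat and Cyp46a1. They are written 5′ to 3′ on the strand of the gene, and capitals mark the closest match where at most 3 of the 12 fixed letters differ. The Abca1 window lies at chr4:53159896-53160145, minus strand, that of Nr1h3 at chr2:91195117-91195366, minus strand, that of Lcat at chr8:105943403-105943652, minus strand and that of Cyp46a1 at chr12:108334066-108334315, plus strand.
Abca1: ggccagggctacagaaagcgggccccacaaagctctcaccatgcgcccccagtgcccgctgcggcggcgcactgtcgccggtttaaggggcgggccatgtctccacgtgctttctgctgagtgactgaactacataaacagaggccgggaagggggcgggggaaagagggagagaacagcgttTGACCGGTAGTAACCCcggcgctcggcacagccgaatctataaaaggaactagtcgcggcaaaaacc
Nr1h3: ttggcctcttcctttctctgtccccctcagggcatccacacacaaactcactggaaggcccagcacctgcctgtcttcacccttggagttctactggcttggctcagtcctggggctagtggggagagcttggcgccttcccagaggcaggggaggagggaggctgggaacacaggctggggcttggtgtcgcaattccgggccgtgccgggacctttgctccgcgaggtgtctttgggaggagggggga
Lcat: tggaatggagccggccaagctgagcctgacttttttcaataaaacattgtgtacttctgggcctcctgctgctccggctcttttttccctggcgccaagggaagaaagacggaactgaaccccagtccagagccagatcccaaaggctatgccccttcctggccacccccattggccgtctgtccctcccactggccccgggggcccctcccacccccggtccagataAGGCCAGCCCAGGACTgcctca
Cyp46a1: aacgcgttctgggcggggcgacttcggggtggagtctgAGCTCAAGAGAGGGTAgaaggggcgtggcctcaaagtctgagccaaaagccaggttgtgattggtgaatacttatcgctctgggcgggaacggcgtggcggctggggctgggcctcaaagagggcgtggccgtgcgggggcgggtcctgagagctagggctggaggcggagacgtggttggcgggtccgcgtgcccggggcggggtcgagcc
In the Abca1 window the match read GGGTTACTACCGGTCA on the opposite strand, from -67 to -52 relative to the start, with 3 letters that differ. Lcat (-22 to -7) and Cyp46a1 (-212 to -197) each held a match with 3 letters that differ on the strand of the gene. Matches this close or closer were in 18.5% of all 32851 windows, and those with at most 2 differing letters in 2.57%. The Nr1h3 windows held no match within 3 letters. They lie inside the annotated span of the gene, chr2:91184061-91202829, so the bases before the outer end of that span were not searched. The Abca1 and Cyp46a1 windows overlap the spans of their genes. The letters AGGTCA alone, found in 14% of windows, were in none of the windows of these genes. A match is a description of letters and not a measured binding site.

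Arrays were alike in overall brightness, with group means of the median intensity from 94.2 to 97.6. A sign of RNA quality, the log2 excess of 3′ over 5′ signal averaged over the array's controls for Gapdh and Actb, moved with region: its group means were 0.052 to 0.093 in hippocampus and 0.10 to 0.15 in prefrontal cortex. Its part in the regional differences below was not tested beyond a fit with it as a covariate, in which 10 members were called between regions in place of 9. Marker genes fitted the labelled regions apart from 1 array, which stands apart: hippocampus of drug-treated Tg2576, replicate 1. Its summed intensity over 5 dentate granule cell markers was 367, against 1280 to 3785 on the other 31 hippocampal arrays and 154 to 261 in prefrontal cortex. For 5 cortical layer markers it was 4560, against 1884 to 3095 on the other hippocampal arrays and 3902 to 10697 in prefrontal cortex. Its oligodendrocyte sum, 23390, was the lowest of the hippocampal arrays. Its sum over 5 hippocampal pyramidal cell markers went the other way, at 6824, within the hippocampal range. The other hippocampal arrays had 6004 to 9777 for this list, and prefrontal cortex 2491 to 4698. Hippocampus of drug-treated wild type replicate 1 leaned the same way but less far. It had the next lowest dentate (1280) and oligodendrocyte (33176) sums of the hippocampal arrays. Its cortical layer sum was 3038, below the prefrontal cortex range, and its pyramidal cell sum was 6847. On the array that stands apart Cyp46a1 was the highest, and Abca1, Lcat and Lpcat3 the lowest, of their group, so some differences that rest on it are also given without it.

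**Figure D1:**
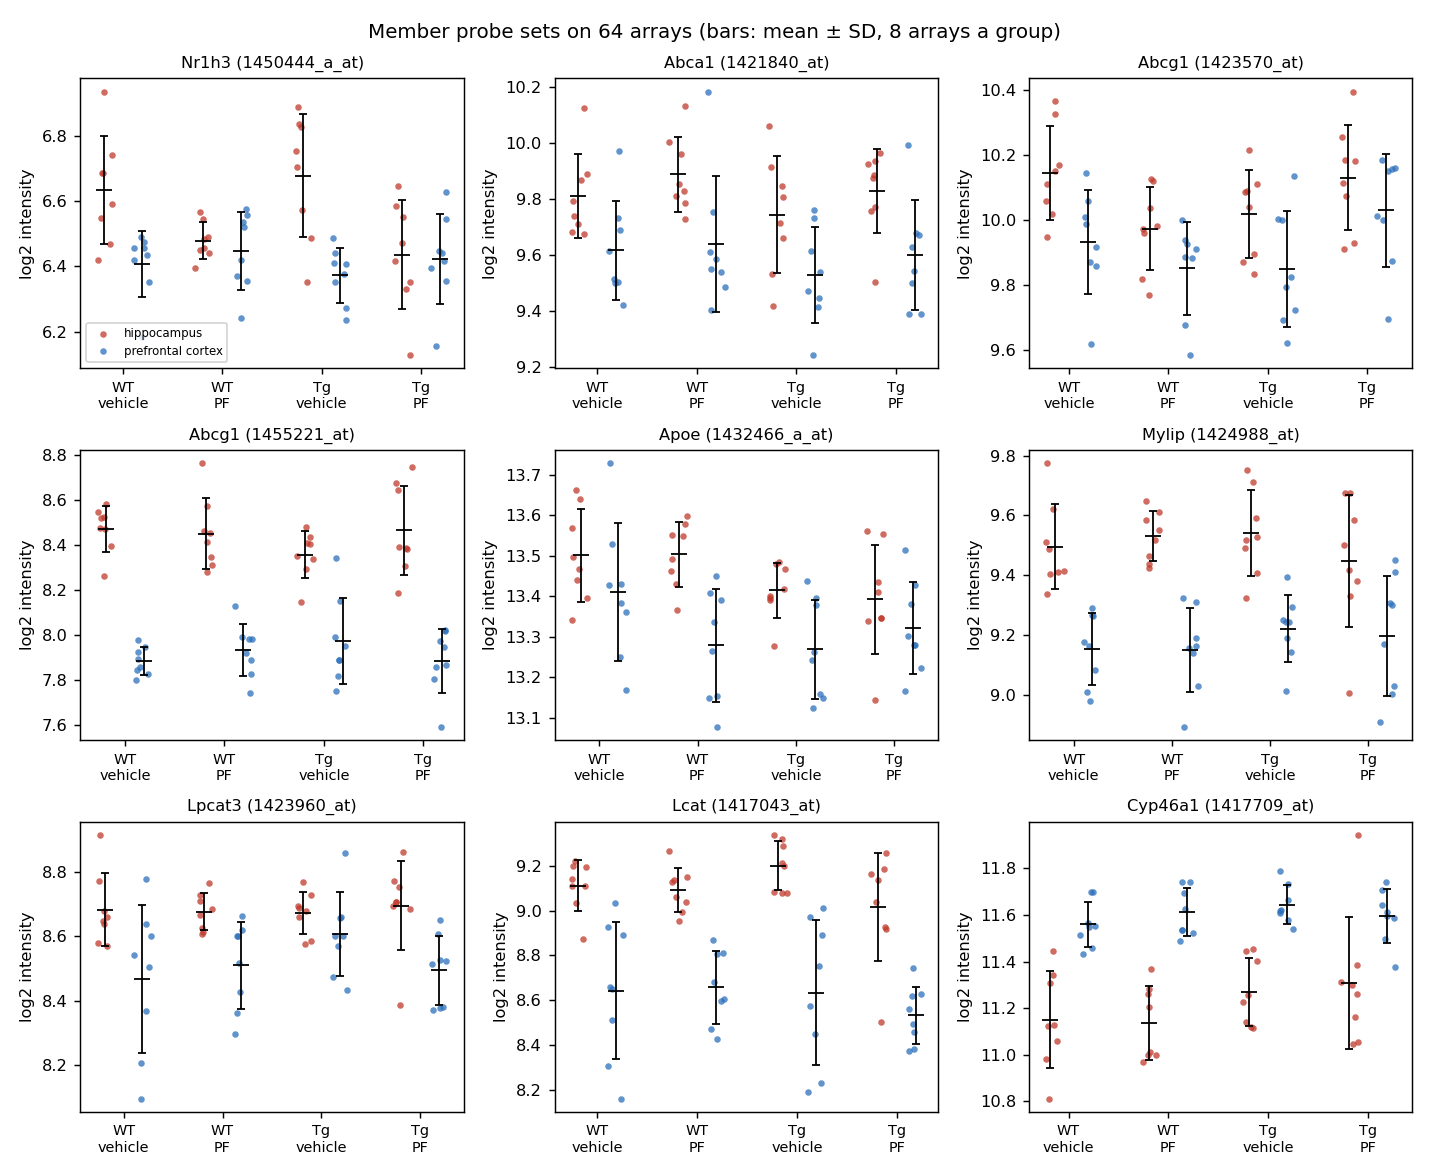
Log2 intensity (vertical axes) of 9 member probe sets in the 4 genotype and treatment groups (horizontal axes), 1 point per array, with the mean and SD of 8 arrays. Hippocampus (red) lies above prefrontal cortex (blue) in most panels, Cyp46a1 shows the opposite order, and the regional gap of Nr1h3 is seen under vehicle and is small under the drug. WT is wild type, Tg is Tg2576 and PF is PF-04447943.

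How the regions differ was examined by subtracting prefrontal cortex from hippocampus, averaged over the 4 genotype and treatment groups. Of the 11 probe sets, 8 were higher and 1 was lower in hippocampus at an adjusted p under 0.05 (limma, Benjamini-Hochberg over 27022 probe sets). The background is large: 68.3% of all probe sets tested were called in this comparison, 31.4% higher and 36.9% lower. The median difference of the 11 was 0.15, against -0.016 over all probe sets. In vehicle-treated wild type alone, 6 were higher and 1 was lower, where 40.5% of all probe sets were called.

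Nr1h3, the alpha receptor, had medians in hippocampus of 6.64 (6.42 to 6.93) in vehicle-treated wild type, 6.47 (6.39 to 6.57) in drug-treated wild type, 6.73 (6.35 to 6.89) in vehicle-treated Tg2576 and 6.44 (6.13 to 6.65) in drug-treated Tg2576. In prefrontal cortex they were 6.44 (6.18 to 6.49) in vehicle-treated wild type, 6.47 (6.24 to 6.57) in drug-treated wild type, 6.39 (6.24 to 6.49) in vehicle-treated Tg2576 and 6.43 (6.16 to 6.63) in drug-treated Tg2576. All groups overlapped, and the hippocampal groups under vehicle were the highest. Averaged over the groups, Nr1h3 was higher in hippocampus by 0.14 ± 0.034 on the log2 scale (SE, adjusted p = 0.000186), with 25 of 32 hippocampal arrays above the cortical mean of their group. The regional difference was 0.23 in wild type and 0.30 in Tg2576 under vehicle, and 0.032 and 0.012 under PF-04447943.

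Abca1, the transporter that feeds lipid to nascent lipoproteins, was brightest with probe set 1421840_at. Its hippocampal medians were 9.77 (9.68 to 10.13) in vehicle-treated wild type, 9.84 (9.73 to 10.13) in drug-treated wild type, 9.76 (9.42 to 10.06) in vehicle-treated Tg2576 and 9.88 (9.50 to 9.96) in drug-treated Tg2576. Its cortical medians were 9.57 (9.42 to 9.97) in vehicle-treated wild type, 9.57 (9.41 to 10.18) in drug-treated wild type, 9.51 (9.24 to 9.76) in vehicle-treated Tg2576 and 9.59 (9.39 to 9.99) in drug-treated Tg2576. The ranges of the regions overlapped in every group, and the hippocampal median was the higher in each. The difference was 0.22 ± 0.045 (SE, adjusted p = 2.05e-05, 30 of 32 arrays), or 1.17-fold. The other Abca1 probe sets did not show it: 1421839_at differed by 0.0052 (95% interval -0.12 to 0.13) and 1450392_at by -0.023 (-0.20 to 0.16). Both were dimmer, with mean levels over all arrays of 7.40 and 6.40, against 9.71 for 1421840_at. With its 3 probe sets averaged, the Abca1 difference was 0.068 and no longer called (adjusted p = 0.291). In vehicle-treated wild type alone 1421840_at missed the threshold, at 0.19 (adjusted p = 0.0811), and without prefrontal cortex wild type vehicle replicate 5 it passed, at 0.24 (adjusted p = 0.0269).

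Abcg1, which passes cholesterol to mature lipoproteins, had the largest regional difference among the members, with probe set 1455221_at. Its arrays lay at 8.50 (8.26 to 8.59) in vehicle-treated wild type, 8.43 (8.28 to 8.76) in drug-treated wild type, 8.38 (8.15 to 8.48) in vehicle-treated Tg2576 and 8.39 (8.19 to 8.75) in drug-treated Tg2576 of hippocampus. Prefrontal cortex gave 7.87 (7.80 to 7.98) in vehicle-treated wild type, 7.95 (7.74 to 8.13) in drug-treated wild type, 7.92 (7.75 to 8.34) in vehicle-treated Tg2576 and 7.91 (7.59 to 8.02) in drug-treated Tg2576. The regions did not overlap in 3 of the 4 groups, and in vehicle-treated Tg2576 the highest cortical array reached into the hippocampal range. Abcg1 by this probe set was higher by 0.52 ± 0.036 (SE, adjusted p = 8.19e-20), 1.43-fold, on 32 of 32 arrays.

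Abcg1 by the brighter probe set, 1423570_at, differed less. Hippocampal medians by it were 10.13 (9.95 to 10.37) in vehicle-treated wild type, 9.98 (9.77 to 10.13) in drug-treated wild type, 10.07 (9.84 to 10.22) in vehicle-treated Tg2576 and 10.15 (9.91 to 10.40) in drug-treated Tg2576. Cortical medians by it were 9.95 (9.62 to 10.15) in vehicle-treated wild type, 9.90 (9.59 to 10.00) in drug-treated wild type, 9.81 (9.62 to 10.14) in vehicle-treated Tg2576 and 10.08 (9.70 to 10.19) in drug-treated Tg2576. Ranges overlapped in every group. The difference was 0.15 ± 0.039 (SE, adjusted p = 0.000513, 27 of 32 arrays). In vehicle-treated wild type alone it was 0.21 (adjusted p = 0.024), and the call was lost without hippocampus replicate 6 (0.18, adjusted p = 0.0588), hippocampus replicate 7 (0.18, 0.0652) or prefrontal cortex replicate 4 (0.17, 0.0836) of that group.

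Apoe, the lipid carrier, had narrow groups. The hippocampal medians were 13.48 (13.34 to 13.66) in vehicle-treated wild type, 13.52 (13.37 to 13.60) in drug-treated wild type, 13.41 (13.28 to 13.48) in vehicle-treated Tg2576 and 13.38 (13.14 to 13.56) in drug-treated Tg2576. Those of prefrontal cortex were 13.41 (13.17 to 13.73) in vehicle-treated wild type, 13.30 (13.08 to 13.45) in drug-treated wild type, 13.25 (13.12 to 13.44) in vehicle-treated Tg2576 and 13.29 (13.17 to 13.51) in drug-treated Tg2576. Every group overlapped with its counterpart in the other region. Apoe was higher in hippocampus by 0.13 ± 0.031 (SE, adjusted p = 0.000151), on 29 of 32 arrays.

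Mylip, the ligase that acts on lipoprotein receptors, had hippocampal medians of 9.45 (9.34 to 9.77) in vehicle-treated wild type, 9.53 (9.42 to 9.65) in drug-treated wild type, 9.52 (9.32 to 9.75) in vehicle-treated Tg2576 and 9.46 (9.01 to 9.68) in drug-treated Tg2576. Prefrontal cortex held 9.17 (8.98 to 9.29) in vehicle-treated wild type, 9.16 (8.89 to 9.32) in drug-treated wild type, 9.24 (9.01 to 9.39) in vehicle-treated Tg2576 and 9.24 (8.91 to 9.45) in drug-treated Tg2576. Hippocampus and cortex did not overlap in either wild-type group. The difference was 0.32 ± 0.038 (SE, adjusted p = 4.4e-11, 31 of 32 arrays), or 1.25-fold. Without the array that stands apart the Mylip difference was 0.34. Lpcat3, the phospholipid remodelling enzyme, lay in hippocampus at 8.65 (8.57 to 8.91) in vehicle-treated wild type, 8.68 (8.61 to 8.77) in drug-treated wild type, 8.68 (8.57 to 8.77) in vehicle-treated Tg2576 and 8.71 (8.39 to 8.86) in drug-treated Tg2576. Its cortical levels were 8.52 (8.10 to 8.78) in vehicle-treated wild type, 8.56 (8.30 to 8.66) in drug-treated wild type, 8.60 (8.43 to 8.86) in vehicle-treated Tg2576 and 8.52 (8.37 to 8.65) in drug-treated Tg2576. The groups overlapped throughout, and the difference was 0.16 ± 0.033 (SE, adjusted p = 2.32e-05, 29 of 32 arrays).

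Lcat, which esterifies cholesterol on lipoproteins, was at 9.13 (8.87 to 9.22) in vehicle-treated wild type, 9.09 (8.95 to 9.27) in drug-treated wild type, 9.21 (9.08 to 9.34) in vehicle-treated Tg2576 and 9.09 (8.50 to 9.26) in drug-treated Tg2576 in hippocampus. Prefrontal cortex was at 8.65 (8.16 to 9.03) in vehicle-treated wild type, 8.64 (8.43 to 8.87) in drug-treated wild type, 8.66 (8.19 to 9.01) in vehicle-treated Tg2576 and 8.53 (8.38 to 8.74) in drug-treated Tg2576. Regions did not overlap in drug-treated wild type or vehicle-treated Tg2576. Lcat was higher in hippocampus by 0.49 ± 0.051 (SE, adjusted p = 7.75e-13), 1.4-fold, on 31 of 32 arrays. Without the array that stands apart it was higher by 0.51.

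Cyp46a1, the neuronal cholesterol hydroxylase, was the member called lower in hippocampus. Its hippocampal medians were 11.13 (10.81 to 11.45) in vehicle-treated wild type, 11.11 (10.97 to 11.37) in drug-treated wild type, 11.24 (11.12 to 11.45) in vehicle-treated Tg2576 and 11.28 (11.05 to 11.94) in drug-treated Tg2576. Its cortical medians were 11.55 (11.43 to 11.70) in vehicle-treated wild type, 11.58 (11.49 to 11.74) in drug-treated wild type, 11.62 (11.54 to 11.79) in vehicle-treated Tg2576 and 11.60 (11.38 to 11.74) in drug-treated Tg2576. The regions did not overlap in drug-treated wild type or vehicle-treated Tg2576, and the highest hippocampal array of all was the 1 that stands apart, at 11.94. Cyp46a1 fell by 0.39 ± 0.04 (SE, adjusted p = 1.07e-12) from cortex to hippocampus, 1.31-fold, on 31 of 32 arrays, and by 0.41 without that array.

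**Figure D2:**
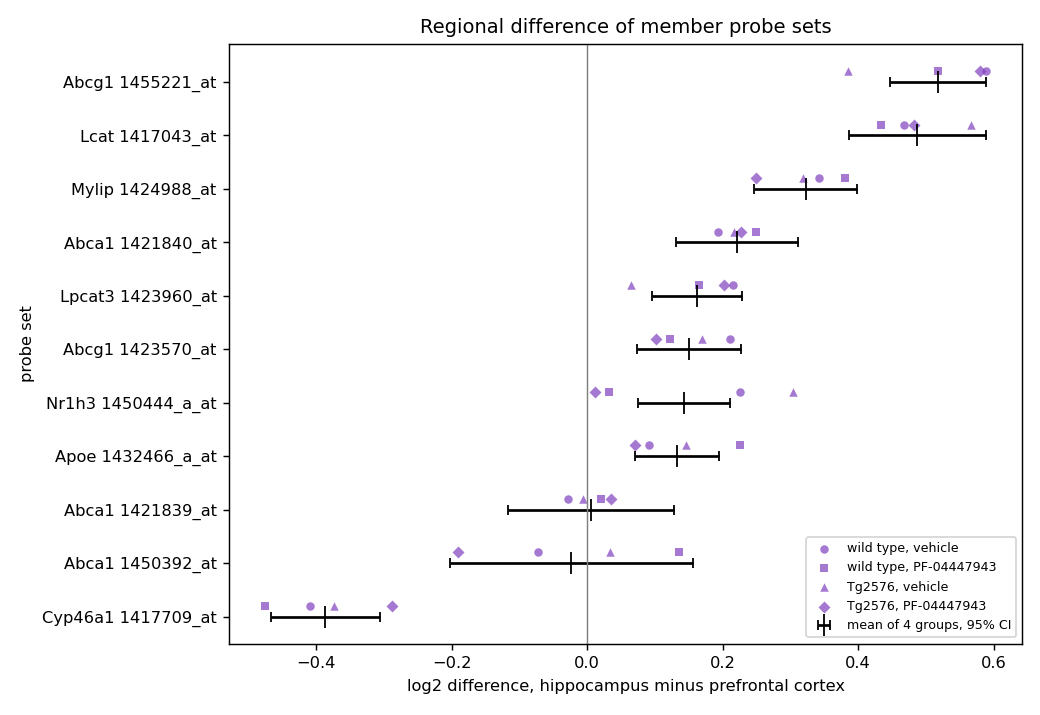
Log2 difference of hippocampus minus prefrontal cortex (horizontal axis) for the 11 member probe sets (vertical axis). Black bars give the mean of the 4 groups with its 95% confidence interval, and symbols give each group. The bars of 8 probe sets lie above 0, Cyp46a1 lies below 0, and the 2 dimmer Abca1 probe sets span 0. For Nr1h3 the vehicle symbols lie apart from the drug symbols.

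Markers of several cell types moved with region, and their part in these differences was not tested. The oligodendrocyte markers were all higher in hippocampus (7 of 7), with sums of 23390 to 50507 against 23977 to 39912 in prefrontal cortex. Of 9 astrocyte markers 5 were higher and 3 lower, with sums of 35910 to 45563 against 33353 to 42675. General neuron markers were lower in 6 of 7, with 1 higher. The 4 dentate granule cell markers and 5 pyramidal cell markers tested were all higher, and 4 of 5 cortical layer markers were lower. Microglia markers were mixed, with 1 of 8 higher and 2 lower. The 5 endothelial markers were all lower. The 3 choroid plexus markers tested were all higher, with sums over the list of 625 to 39752 in hippocampus against 230 to 1295 in prefrontal cortex. Of 6 meninges and fibroblast markers 2 were higher and none lower, with sums of 924 to 4512 against 636 to 2642. Of the markers tested, 83.1% were called, against 68.3% of all probe sets.

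**Figure D3:**
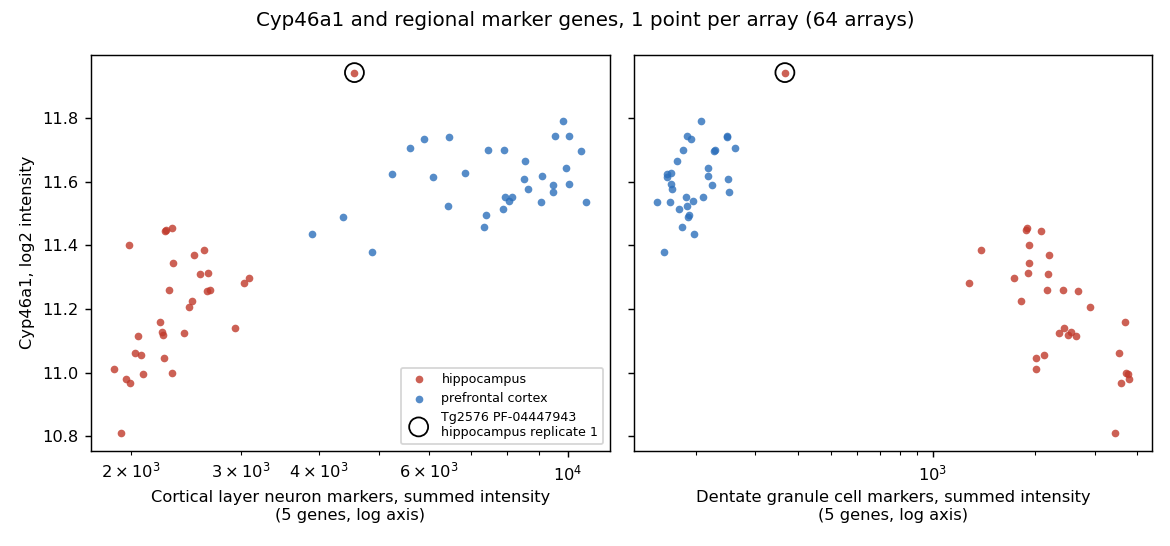
Cyp46a1 log2 intensity (vertical axis) against the summed intensity of cortical layer (left) and dentate granule cell (right) markers (horizontal log axes), 1 point per array. The circled array, drug-treated Tg2576 hippocampus replicate 1, has the highest Cyp46a1 level of the 64 arrays, at 11.94. Its cortical layer sum, 4560, lies within the prefrontal cortex range, and its dentate sum, 367, lies between the ranges of the regions.

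Other genes of the pathway were read from 6 lists of 36 tested genes. In the regional comparison 21 were higher and 6 lower in hippocampus, 75% in all, against 68.3% of all probe sets. Receptor partners and coregulators were 3 higher and 2 lower of 5: Ncoa1, a coactivator, was higher by 0.42 (adjusted p = 1.66e-17), Rxra by 0.15, and Rxrg, a retinoid X receptor, was lower, at -0.96 (adjusted p = 1.56e-05). Other target genes were 5 higher and 2 lower of 9. Among them Lpl, lipoprotein lipase, was higher by 1.83 (adjusted p = 3.81e-19), Srebf1, a regulator of fatty acid synthesis, by 0.41, and Pltp, the phospholipid transfer protein, by 0.39. Of 10 other exporters and lipoproteins, 6 were higher and 1 was lower, with Abca2 at 0.31, Abcg4 at 0.31, Scarb1 at 0.32 and Abca5 at -0.31. Lipoprotein receptors on which Mylip acts or that resemble them were 2 higher and 1 lower of 3, with Lrp1 at 0.20, Vldlr at 0.085 and Lrp8 at -0.20. Oxysterol enzymes were 2 higher of 4: Cyp7b1, which breaks oxysterols down, by 0.99 (adjusted p = 3.92e-18), and Hsd3b7 by 0.25. Ester hydrolysis and lysosomal genes were 3 higher of 5, namely Npc1 (0.28), Lipa (0.23) and Lipe (0.19).

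What PF-04447943 changes was examined in each region over both genotypes, and in each genotype. In hippocampus 1 of the 11 probe sets, that of Nr1h3, was called, and it was lower under the drug. Of all probe sets tested in that comparison 2.18% were called, 0.777% higher and 1.4% lower. Nr1h3 medians were 6.64 (6.42 to 6.93) in vehicle-treated wild type and 6.47 (6.39 to 6.57) in drug-treated wild type, and 6.73 (6.35 to 6.89) in vehicle-treated Tg2576 and 6.44 (6.13 to 6.65) in drug-treated Tg2576. The drug and vehicle ranges overlapped in both genotypes, and all 16 drug arrays lay below the vehicle mean of their genotype. Nr1h3 fell by 0.20 ± 0.054 (SE, 95% interval -0.31 to -0.089, adjusted p = 0.047 with limma), a level 1.15-fold lower. The probe set is dim, with a hippocampal mean of 6.56 against a filter level of 5.94. In each genotype alone, where 0% (Tg2576) and 0.0037% (wild type) of all probe sets were called, it did not pass: the difference was -0.24 in Tg2576 (adjusted p = 0.342) and -0.16 in wild type (adjusted p = 0.333). In prefrontal cortex the Nr1h3 difference was 0.044 (95% interval -0.04 to 0.13, adjusted p = 1). The test of the difference between regions gave -0.24 ± 0.068 (SE, unadjusted p = 0.000686, adjusted p = 0.142), not past the threshold, where 0.0296% of all probe sets were called.

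The signal range, meaning the spread of an array's log2 values between their quartiles, moved with the drug in hippocampus. For wild type it was 3.51 ± 0.081 (SD, n = 8) with vehicle and 3.65 ± 0.057 with the drug, and for Tg2576 3.51 ± 0.12 and 3.60 ± 0.11. With it as a covariate the Nr1h3 difference was -0.12 (adjusted p = 0.829), and the call was also lost with quantile normalization (-0.18, adjusted p = 0.0809) and with arrays centred on their median (-0.18, adjusted p = 0.063). Leaving out 1 array kept the call in 9 of 32 fits, those without drug-treated Tg2576 replicate 3 or 4, drug-treated wild type 5, vehicle-treated Tg2576 5, 7 or 8, or vehicle-treated wild type 3, 5 or 7. In the other 23 the adjusted p rose to at most 0.0886. Over all 32 fits the difference stayed between -0.22 and -0.18. Without the array that stands apart the Nr1h3 difference was -0.19 (adjusted p = 0.0575 with limma), and the call was lost. Summed microglia markers were 7906 (7152 to 9090) and 8211 (7827 to 9325) in wild type under vehicle and drug, and 8404 (8086 to 10419) and 8244 (7189 to 9934) in Tg2576. No marker of the 10 cell type lists was called with the drug in hippocampus (0 of 60, 3 at an unadjusted p under 0.05).

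The genes that these receptors act on did not pass in either region. The hippocampal differences that follow are by the brightest probe set of each gene. In hippocampus the drug differences were 0.08 for Abca1 (95% interval -0.037 to 0.20), -0.029 for Abcg1 (-0.13 to 0.074), -0.01 for Apoe (-0.088 to 0.068), -0.03 for Mylip (-0.14 to 0.082) and 0.0087 for Lpcat3 (-0.067 to 0.085). Cyp46a1 was at 0.012 (-0.13 to 0.16) and Lcat at -0.10 (-0.21 to 0.008). The highest member difference was 0.12, of the dimmest Abca1 probe set, 1450392_at, and was not called. By the dimmer Abcg1 probe set, 1455221_at, the mean under drug against vehicle was 8.47 against 8.36 in Tg2576. In wild type it was 8.45 against 8.47. In drug-treated Tg2576 hippocampus Lcat was at -0.18 from vehicle (unadjusted p = 0.0214, adjusted p = 0.409), and at -0.11 without the array that stands apart. In prefrontal cortex no member was called over both genotypes, none had an unadjusted p under 0.05, and 0% of all probe sets passed (limma). The member differences there ran from -0.043 to 0.13. Of the 37 other pathway genes tested, none was called with the drug in hippocampus (5 at an unadjusted p under 0.05) or in prefrontal cortex (1).

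**Figure D4:**
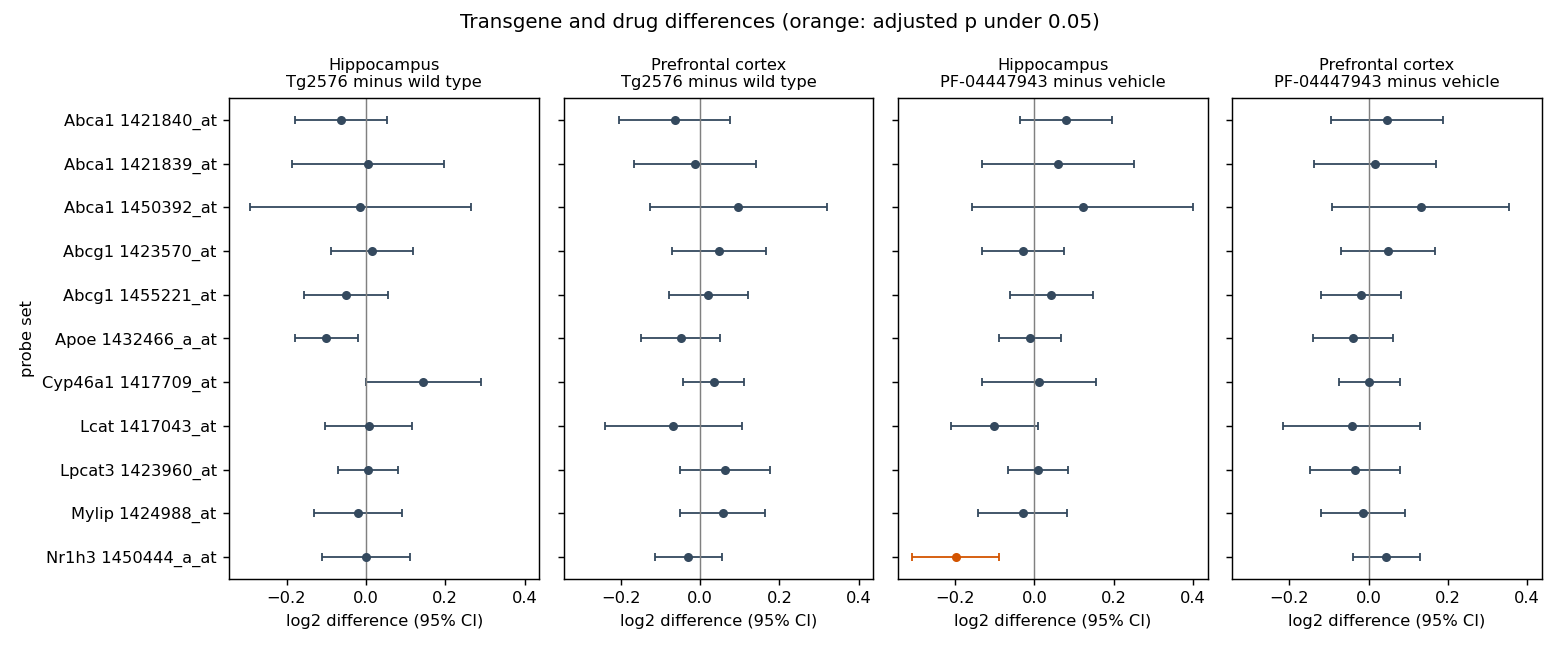
Log2 differences (horizontal axes) with 95% confidence intervals for the 11 member probe sets (vertical axis), for the transgene over both treatments and the drug over both genotypes in each region. Nr1h3 under the drug in hippocampus, in orange, is the only probe set past the adjusted threshold, at -0.20; the others lie within -0.10 and 0.15.

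Whether the transgene moves these genes was asked by setting Tg2576 against wild type over both treatments. No member was called in hippocampus, where 0.0962% of all probe sets were (limma), and 2 had an unadjusted p under 0.05, as did 7.42% of all probe sets. None was called in prefrontal cortex, where 0.0259% of all probe sets were, and none had an unadjusted p under 0.05. The hippocampal interval for Nr1h3 was -0.11 to 0.11, that for the brightest Abca1 probe set -0.18 to 0.053 and that for the brighter Abcg1 probe set -0.087 to 0.12. Under vehicle alone none was called in either region (0.0111% of all probe sets in hippocampus and 0% in prefrontal cortex), and none had an unadjusted p under 0.05. No transgene difference differed between regions at the threshold, where 0% of all probe sets passed and no member had an unadjusted p under 0.05.

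Apoe in Tg2576 hippocampus was at -0.10 from wild type (95% interval -0.18 to -0.021, unadjusted p = 0.0147, adjusted p = 0.592), with 14 of 16 arrays below the wild-type mean of their treatment. Without the array that stands apart the difference was -0.081. Cyp46a1 was at 0.15 (95% interval 0.00039 to 0.29, unadjusted p = 0.0494, adjusted p = 0.673), with 11 of 16 arrays above. Without that array it was 0.10 (unadjusted p = 0.0973). Neither passed the adjusted threshold. Dentate granule cell sums were 2454 (1884 to 3785) and 2556 (1280 to 3765) in wild type under vehicle and drug, and 2259 (1814 to 2686) and 1961 (367 to 3676) in Tg2576. All 5 dentate markers tested were below 0 in that comparison, with a median of -0.40; none was called, and 3 had an unadjusted p under 0.05. Of 9 astrocyte markers 8 were below 0, with a median of -0.099. None was called, and 4 had an unadjusted p under 0.05, of which Gfap was above 0, at 0.18. Of 6 meninges and fibroblast markers 1 was called lower, Ogn, a matrix proteoglycan, at -0.85 (adjusted p = 0.0267 with limma). Over all lists 1 of 60 markers was called, and 13 had an unadjusted p under 0.05. The part of these markers in the Cyp46a1 and Apoe values was not tested. Of the 37 other pathway genes, none was called with the transgene in hippocampus (5 at an unadjusted p under 0.05) or prefrontal cortex (2).

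Whether the drug acts differently in the genotypes was examined by the interaction, the drug difference in Tg2576 minus that in wild type. No member was called in either region, 0% of all probe sets passed in each, and 1 member had an unadjusted p under 0.05 in each (3.43% of all probe sets in hippocampus and 3.06% in prefrontal cortex), the brighter Abcg1 probe set 1423570_at. In hippocampus its drug difference was 0.11 in Tg2576 and -0.17 in wild type, an interaction of 0.28 ± 0.1 (SE, unadjusted p = 0.00911, adjusted p = 0.983). In prefrontal cortex the drug differences were 0.18 and -0.082, an interaction of 0.26 ± 0.12 (SE, unadjusted p = 0.0304). The same probe set was higher in Tg2576 than in wild type under the drug by values short of the threshold, 0.16 in hippocampus (adjusted p = 0.875) and 0.18 in prefrontal cortex (adjusted p = 0.983). Without the array that stands apart, the hippocampal interaction was 0.27 and the hippocampal difference under the drug 0.15. The other Abcg1 probe set, 1455221_at, had interactions of 0.13 (95% interval -0.082 to 0.34) and -0.14 (-0.34 to 0.064), on opposite sides of 0 in the regions.

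How the members vary together was described by the correlation of deviations from the 8 group means over 64 arrays, which share processing and differ in signal range, so no test is given. Over the 51 pairs of probe sets of different genes, r ran from -0.29 to 0.60 with a median of 0.070. Apoe went with Abca1 (0.57, 1421840_at) and with Lpcat3 (0.57), and Lcat with Lpcat3 (0.54). Nr1h3 lay between -0.13 and 0.27 with the other probe sets. The dimmer Abca1 probe sets went together at 0.83, and the 2 of Abcg1 were at 0.08 with each other.

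The genes most like each member by the same measure, among 23420 probe sets compared, are named for description. Apoe was nearest to Slc6a20a (r = 0.74), Serping1 (0.74) and Ogn (0.73). Cyp46a1 was nearest to 6430548M08Rik (0.82), Efr3b (0.82) and Olfm2 (0.82), with values of 0.88 to 0.90 in hippocampus and 0.50 to 0.60 in prefrontal cortex. The hippocampal values include the array that stands apart, where Cyp46a1 was highest, and were not computed without it. Nr1h3 had lower likeness, to Cby2 (0.61), Inafm1 (0.60) and Dll4 (0.59). The nearest gene was Cacng5 for Abca1 (0.71), C2 for Abcg1 (0.67), Sh3rf1 for Mylip (0.64), Cnpy2 for Lpcat3 (0.77) and Stx12 for Lcat (0.75).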

How the data were processed

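RNA of 64 samples was measured on Affymetrix mouse arrays. The authors deposited intensity values on a linear scale, and the submitters' processing notes name RMA, with no version given here. Their log2 was taken, so each log2 value derives from the deposited intensity. Arrays have no read depth; their number limits the precision. Of the probe sets, 34945 had 1 symbol, 932 several and 9160 none, and 64 controls were left out. Those under the 40th percentile of the mean (log2 5.94 in hippocampus, 5.91 in prefrontal cortex, 5.93 over both) were dropped, which left 27022 to test.

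Each region was fitted with its 4 groups, and both regions together with 8 groups, in limma 3.58.1 (R 4.3.3, data.table version 1.17.8). Tests were two-sided, adjusted by Benjamini-Hochberg over every probe set tested, at 0.05; the fit was tested on simulated data. Named are members past this threshold or with an unadjusted p under 0.05, the brightest probe set of each member gene in every group, up to 4 called genes of each list, and the genes most like each member by Pearson's r. Members and lists were chosen with earlier results of these data known. Alternatives were no filter or one at the 60th percentile, a single or an averaged probe set per gene, quantile normalization, median centring, trend with robust prior, weights for arrays, RNA quality or signal range as covariate, fits of the compared groups only, blocks by replicate number, a threshold of 0.10, and leaving out each array. Python 3.11.15 with matplotlib 3.10.9 (numpy 2.4.6, pandas 2.3.3) drew the figures.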

Additional observations from a re-analysis of the deposited data

Results flagged for a closer look

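In groups of 8 arrays, an array was singled out where its gap to the nearest of the others, divided by the group's whole range, exceeded Dixon's critical value for 8 samples at the 95% level. This held for 7 of 88 combinations of probe set and group, where chance gives about 5%. Hippocampus of drug-treated Tg2576 replicate 1 accounts for 4 of them: Lcat at 8.50, Abca1 (1421840_at) at 9.50 and Lpcat3 at 8.39 were the lowest of their group, and Cyp46a1 at 11.94 was the highest. This is the array whose regional markers stand apart. In prefrontal cortex of drug-treated wild type, replicate 8 was the highest for Abca1 (1421840_at), at 10.18. In hippocampus of vehicle-treated Tg2576, replicate 1 was the lowest for Apoe, at 13.28. In prefrontal cortex of vehicle-treated wild type, replicate 6 was the lowest for Nr1h3, at 6.18.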

How the results depend on the processing

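The 30 single member differences with an unadjusted p under 0.05 in the main fit were refitted. Of 1927 such refits none changed sign, 33 fell short of the threshold and 5 newly passed it. Differences picked by p in the same data, mostly refitted without 1 array, rarely change sign, so this count is no measure of stability. The count of 1 member called with the drug in hippocampus, Nr1h3, was 0 with the 60th percentile filter and with 1 probe set per gene, where Nr1h3 was not tested. It was 0 with the probe sets of a gene averaged (adjusted p = 0.0572), quantile normalization (0.0809), median centring (0.063), a trend with a robust prior (0.0543) and the signal range covariate (0.829); the cause was not tested. It was 1 with no filter, array weights, the RNA quality covariate, numbers 1 to 4 against 5 to 8 as a block, and a threshold of 0.10. Leaving out 1 array gave 0 to 1 members called in this comparison, with adjusted p from 0.0159 to 0.0886 for Nr1h3. Quantile normalization moved the drug calls over all probe sets in hippocampus from 210 higher and 379 lower to 49 higher and 208 lower, and median centring to 180 and 185. Calls over all 4 groups between regions numbered 9 in each of the 64 fits that left out 1 array, and in vehicle-treated wild type 6 to 8. Over the other alternatives they numbered 7 to 10 over all groups and 5 to 8 in vehicle-treated wild type, the lowest with 1 probe set per gene, where fewer members were tested. In that group Lpcat3 lost its call with only the groups compared (adjusted p = 0.0591), and Abca1 (1421840_at) gained one with quantile normalization (0.0388), array weights (0.00675), a threshold of 0.10 and the replicate block (0.0314).

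The labels do not say that a replicate number marks a mouse, and deviations of arrays with the same group and number in both regions correlated above 0.1 in 21 of 32 pairs (median r 0.23), with 16 of 32 best matched to their own number. Arrays with the same number in different groups of a region cannot come from the same mouse. They correlated above 0.1 in 26 of 48 pairs in hippocampus (median r 0.13) and 35 of 48 in prefrontal cortex (0.35). What a shared number marks was not tested. With the replicate block, 9 members were called between regions, 8 in vehicle-treated wild type in place of 7, and 1 with the drug in hippocampus (adjusted p = 0.0469). No other count of members changed under the block.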
